A study of Arabidopsis thaliana with 12 samples.

Results

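Leaf ageing was followed in gvs1-1, an Arabidopsis thaliana genotype, by setting its leaves at the stage called DAE28 against its leaves at the stage called DAE14. The 6 gvs1-1 arrays, 3 at DAE28 and 3 at DAE14, are part of a series of 12 one-colour arrays, whose other 6 hold Col, the reference ecotype, at the same stages. Members were taken by label alone, and the comparison ran over 18805 loci, those that cleared background in every array of some group. Each array held RNA from the third and the fourth leaves of 1 of 3 independent biological samples, and plants on soil had a day of 16 h light and 8 h dark and were harvested 5 h into the light. The labels give growth times of 23 and 37 days, do not spell out DAE, and list no transgene or added agent for either genotype. The sources used here do not name the locus of gvs1, and its own transcript could therefore not serve as a check of the labels.

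Leaf senescence is the last phase of a leaf's life, in which chloroplasts are dismantled and their nitrogen, phosphorus and other nutrients are sent to growing organs. NAC and WRKY transcription factors, abscisic acid, ethylene, jasmonate and salicylic acid are known to promote it, and cytokinin is known to delay it. Pheophytinase and the STAY-GREEN proteins break down chlorophyll, while vacuolar proteases and autophagy, which carries cytoplasm and plastid material to the vacuole, break down protein. Before senescence, a leaf passes from growth by cell division and wall loosening to maturity.

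Values are the authors' deposited log2 level per locus, and a change is the mean at DAE28 minus the mean at DAE14 with the standard error of the limma fit (SE, n = 3 arrays per stage). A change of 1 is a 2-fold change, and a locus passed where its p, adjusted over all loci tested by the Benjamini-Hochberg method, was under 0.05. In gvs1-1, 11553 loci (61.4%) passed, of which 6284 rose (33.4%) and 5269 fell (28.0%). At an unadjusted p under 0.05 the count was 12294 (65.4%), and the 3 values of one stage did not overlap those of the other in 13030 loci (69.3%). The changes reached at least 2-fold in 1555 rising loci (8.27%) and in 2036 falling loci (10.8%). The median change of all loci tested was 0.08, against 0.05 when the scanner signals were scaled to each array's 75th percentile. That scaling gave 5901 rises (31.4%) and 5705 falls (30.3%), so the share of calls that rose was 54.4% in the deposited table and 50.8% on the scanner scale. All 3 DAE28 arrays of gvs1-1 shared a slide with DAE14 replicate 3, and DAE14 replicates 1 and 2 lay on a second slide scanned on another day. A fit with the slide as a block therefore gives the same age change in gvs1-1 as the shared slide alone. Only the error differs between these fits, so a call can differ between them. On the shared slide alone, which sets 3 DAE28 arrays against 1 DAE14 array that is assumed to vary like the other groups, 7390 of the 11553 passed.

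The deposited values tracked the median signal, and background glow left in them can compress changes of dim loci. Among called loci that were not above background on all 6 gvs1-1 arrays, the median absolute change was 0.77 in the table and 3.01 on the background-corrected 75th percentile scale. Among the 10355 called loci above background on all 6 arrays these medians were 0.69 and 0.82. The scales may also differ in the probe that stands for a locus, and the source of the gap was not tested. The brightest 1% of loci, 189 in number, moved the other way between the scales, with a median change of 0.07 in the table and -0.52 on the 75th percentile scale. The change on the 75th percentile scale is therefore added below for lists, and for loci that have more than a bound, where it differs from that of the table by more than 1.5 times. Across loci, arrays of one stage correlated at 0.990 to 0.993 at DAE28 and 0.985 to 0.993 at DAE14, and arrays of different stages at 0.876 to 0.923. Loci are not independent of each other in these correlations.

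The largest rises are named among loci with a symbol that passed, were above background on all 6 arrays and did not overlap between the stages. CML41, which encodes a calmodulin-like calcium sensor, read 14.60, 15.00 and 14.54 at DAE28 and 7.49, 9.45 and 9.32 at DAE14, a rise of 5.96 ± 0.59 or 62.2-fold (limma adjusted p = 9.5e-06). CIPK25, a protein kinase that works with calcineurin B-like calcium sensors, read 13.08, 12.54 and 11.69 at DAE28 and 6.47, 6.19 and 7.11 at DAE14, a rise of 5.85 ± 0.38. HIS1-3, a drought-inducible linker histone, read 13.94, 13.62 and 13.52 at DAE28 and 7.97, 8.22 and 8.72 at DAE14, a rise of 5.39 ± 0.28. In each of these loci every DAE28 array lay well above every DAE14 array, and DAE14 replicate 1 stood apart from its partners only in CML41. PYD4, an aminotransferase named for pyrimidine breakdown, rose by 5.38 ± 0.35, and the transcription factor MYB112 by 4.97 ± 0.24. The cation and proton exchanger CHX17 rose by 4.97 ± 0.39, the dehydrin LTI30 by 4.51 ± 0.42 and the transcription factor ANAC087 by 4.47 ± 0.25. The mitochondrial alternative oxidase AOX1D rose by 4.23 ± 0.29 and the glutathione S-transferase GSTU11 by 4.11 ± 0.46.

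The largest falls under the same limits included both TGG1 and TGG2, the myrosinases of the shoot that hydrolyse glucosinolates when tissue is wounded. TGG2 read 7.67, 8.36 and 8.91 at DAE28 and 15.28, 14.85 and 15.28 at DAE14, so it fell by 6.82 on the log2 scale (SE 0.25; limma adjusted p = 2.9e-08). TGG1 read 7.93, 8.03 and 8.48 at DAE28 and 13.60, 13.41 and 13.82 at DAE14, with a change of -5.46 ± 0.17. Their stages were separated by more than 4 log2 units on every pair of arrays, and both transcripts are known from myrosin cells and guard cells. EXPA8, an expansin that loosens walls, read 6.01, 6.16 and 7.65 at DAE28 and 12.74, 12.63 and 12.58 at DAE14, with a change of -6.04 ± 0.50. DELTA-TIP, a water channel of the tonoplast, changed by -5.87 ± 0.34. The methionine sulfoxide reductase MSRB6 changed by -5.64 ± 0.44. Several of the others encode wall or secreted proteins: the proline-rich protein PRP4 (-5.47 ± 0.37), the arabinogalactan protein AGP21 (-5.35 ± 0.22), the wall acetylation family member TBL45 (-5.13 ± 0.48) and the DUF642 protein DGR2 (-5.03 ± 0.35). DRT100, a leucine-rich repeat protein, changed by -5.23 ± 0.34. Because these are whole leaves, fewer cells of a type and less RNA per cell cannot be told apart.

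**Figure D1:**
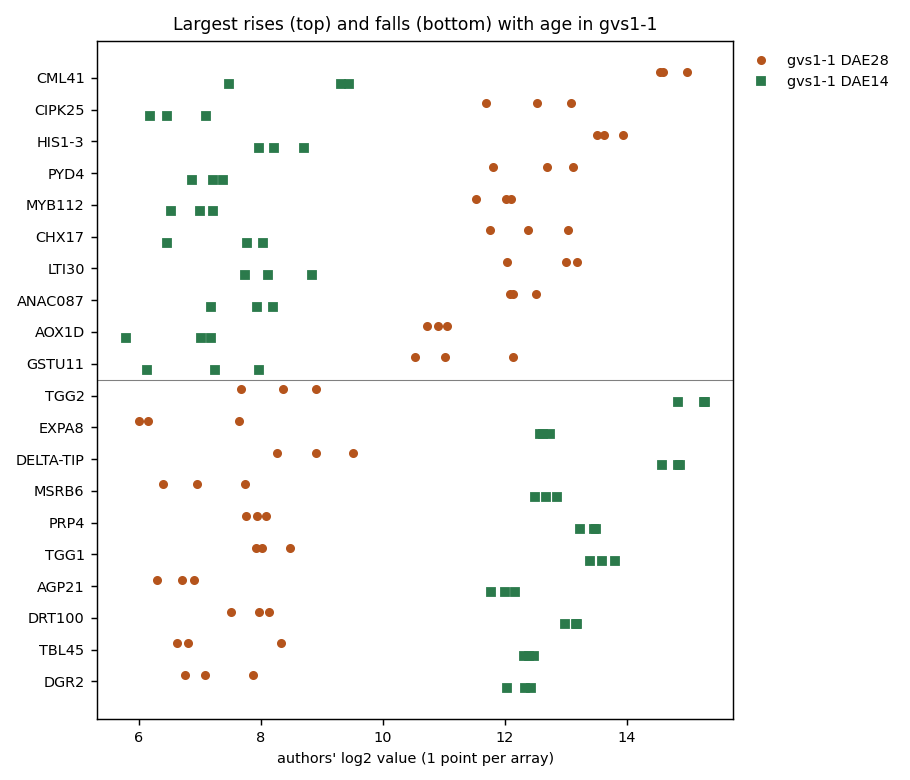
Authors' log2 value (x axis) of the 10 loci with the largest rises and the 10 with the largest falls with age in gvs1-1 (y axis), with 1 circle per DAE28 array and 1 square per DAE14 array. The stages do not overlap for any of the 20 loci, and CML41 spans 14.54 to 15.00 at DAE28 against 7.49 to 9.45 at DAE14.

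For 349 loci the 3 arrays were above background at DAE28 and 0 were at DAE14, and for 352 loci the reverse held, so these changes have only a bound. Each bound sets the mean of the bright stage against a floor in the dim stage, which per array is the higher of the locus's own value and the lowest value among loci above background. Such loci entered the fit through their bright stage, so a p beside a bound adds nothing to it. CCD8, a carotenoid cleavage dioxygenase of strigolactone synthesis, read 10.50, 9.79 and 9.21 at DAE28 and 5.50, 5.55 and 5.54 at DAE14, so it was at least 19.7-fold higher (limma adjusted p = 2.5e-06). The late embryogenesis abundant protein gene LEA7 was at least 13.2-fold higher, the papain-type protease CEP1 at least 10.9-fold and the purple acid phosphatase PAP20 at least 7.64-fold. Lower at DAE28 were the germin-like protein GER3 by at least 15.2-fold, the proline-rich protein PRP2 by at least 12-fold, the beta-expansin EXPB1 by at least 9.57-fold and the auxin-response gene SAUR26 by at least 8.84-fold. GER3 read 5.72, 5.66 and 5.70 at DAE28 and 9.05, 10.34 and 9.47 at DAE14. Its DAE28 values lay near the floor of the arrays, which ran from 5.38 to 5.50.

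Gene lists follow by role, with 47 lists of 780 entries, of which 738 entries were tested. Their members were chosen with earlier results of these data known, so the counts below describe the lists and are no independent evidence. Of 19 NAC factors known or proposed to act in senescence, 18 rose and 0 fell, with a median change of 2.11, beside 33.4% rises among all loci and an overall median of 0.08. NAP, which activates chlorophyll and protein breakdown genes, read 13.56, 13.21 and 12.86 at DAE28 and 11.10, 10.88 and 10.77 at DAE14, a rise of 2.29 ± 0.20. ORE1, listed as NAC6 and a central promoter of leaf death, read 13.89, 13.30 and 12.92 at DAE28 and 11.35, 9.84 and 9.98 at DAE14, a rise of 2.98 ± 0.59. Both were already well above background at DAE14, and their stages did not overlap. NAC019, which takes part in abscisic acid and jasmonate responses, rose by 3.10 ± 0.27. JUB1 and VNI2, which are known to delay senescence, rose too, with changes of 2.11 and 1.18. NAC090 was the member that did not pass, with a change of 0.64.

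Among 14 senescence WRKY factors 11 rose and 1 fell, with a median of 1.42. WRKY75 had 10.44, 9.64 and 9.85 at DAE28 and 5.74, 6.58 and 6.66 at DAE14, where 2 of 3 arrays were above background, and it rose by 3.65 ± 0.27. WRKY51 rose by 3.23 ± 0.45 and WRKY55 by 2.70 ± 0.35. WRKY53, an early senescence regulator, gave 9.94, 10.16 and 10.67 at DAE28 and 8.76, 10.79 and 9.53 at DAE14. Its stages overlapped, since DAE14 replicate 2 was the highest of the 6 arrays, and its change of 0.57 ± 0.45 did not pass (limma adjusted p = 0.30). WRKY22 changed by -0.89 ± 0.35 and passed, but the stages overlapped and the call was lost without DAE14 replicate 2 (-0.41), DAE28 replicate 1 (-0.66) or DAE28 replicate 2 (-0.93), on the 75th percentile scale (-0.97) and on the shared slide alone (-0.54).

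Regulators of chloroplast genes did not move together. Of 15 tested, 2 rose and 6 fell, with a median of 0.01 in the table and -0.09 on the 75th percentile scale. The list median was -0.06 to 0.05 with 1 array left out, so it has no settled sign. The plastid sigma factors, which direct the plastid RNA polymerase to promoters, made up the 3 largest falls. SIGF changed by -1.33 ± 0.12, SIG4 by -1.29 ± 0.23 and SIG2 by -0.95 ± 0.16. HY5, a promoter of light responses, rose by 0.64 ± 0.17 but missed the threshold on the shared slide alone (0.72, limma adjusted p = 0.051).

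Of 22 senescence-associated genes, named for rising in older leaves, 19 rose and 2 fell, with a median of 1.91. SAG12, a cysteine protease that serves as the classical senescence marker, read 10.01, 8.60 and 5.95 at DAE28 and 5.67, 5.64 and 5.62 at DAE14. Its 3 DAE28 arrays spread over more than 4 log2 units, with replicate 3 only just above the DAE14 arrays, of which 0 were above background. At DAE28, SAG12 levels were higher by at least 5.82-fold (limma adjusted p = 0.0099), under the limit given above for bounds. The log2 change of 2.54 in the table was 1.63 without DAE28 replicate 1, and on the shared slide alone it was 2.56 and did not pass (limma adjusted p = 0.25). SAG29, a sugar transporter of the SWEET family, read 12.42, 12.78 and 11.15 at DAE28 and 6.42, 5.75 and 5.79 at DAE14. It rose by 6.13 ± 0.57, and 1 of its 3 DAE14 arrays was above background. HAI1, also SAG113, a phosphatase of abscisic acid signalling, rose by 3.87 ± 0.45, and SRG1 by 3.65 ± 0.38. DIN11, a dark-inducible gene above background on 1 DAE28 array, changed by -0.91 ± 0.34, against -2.78 on the 75th percentile scale. Its call was lost without DAE14 replicate 1 (-0.45) or without any of the 3 DAE28 arrays (-0.98 to -0.86).

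Of 9 vacuolar and chloroplast proteases 6 rose and 0 fell, with a median of 1.06 in the table against 0.45 and 3 rises on the 75th percentile scale. Gamma-VPE, a vacuolar processing enzyme that activates other vacuolar proteases, read 15.78, 15.85 and 15.70 at DAE28 and 13.41, 13.66 and 14.09 at DAE14. The stages did not overlap, and the rise was 2.06 ± 0.16 in the table and 0.96 on the 75th percentile scale. Alpha-VPE rose by 1.35 ± 0.34, against 3.09 on the 75th percentile scale, with 1 of 3 DAE14 arrays above background. Autophagy genes moved less but widely: 21 of 25 rose and 0 fell, with a median of 0.57. Without single arrays 15 to 19 of them rose, with medians of 0.51 to 0.62. ATG8A and ATG8B, ubiquitin-like proteins that coat the autophagosome, rose by 1.69 ± 0.18 and 1.70 ± 0.14. ATG8B read 10.09, 9.83 and 9.44 at DAE28 and 8.14, 8.02 and 8.10 at DAE14. All 9 ATG8 genes tested rose, from 0.54 for ATG8E to 1.70 for ATG8B. ATG8E changed by 0.20 on the 75th percentile scale and 0.24 on the shared slide alone, and passed in neither. The cargo receptor NBR1 rose by 1.38 ± 0.15, against 0.78 on the 75th percentile scale. The conjugation enzyme ATG7 did not pass at 0.55. The 26S proteasome, the other main route of protein breakdown, had 3 rises and 3 falls among 26 subunits, with a median of -0.05. In the table both shares lay below those of all loci. On the 75th percentile scale it had 1 rise and 9 falls, with a median of -0.17. There the share of rises lay below the 31.4% of all loci and that of falls above the 30.3%. RPT3, an ATPase of its base, was highest among the rises with 0.63 ± 0.15, and that call was lost on the 75th percentile scale and on the shared slide alone.

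Chlorophyll breakdown genes mostly rose: 7 of 13 rose and 3 fell, with a median of 1.57. NYE1, the STAY-GREEN protein that takes magnesium out of chlorophyll, read 12.60, 12.40 and 12.28 at DAE28 and 9.60, 9.72 and 10.27 at DAE14, a rise of 2.56 ± 0.16 (limma adjusted p = 4.6e-07). NYE2, its close relative, which the files list by its locus AT4G11910, rose by 4.63 ± 0.24. PPH, the pheophytinase that removes the phytol tail, read 13.39, 13.28 and 13.09 at DAE28 and 11.28, 11.23 and 11.40 at DAE14, a rise of 1.94 ± 0.11. For these the gap between stages was wider than the spread within them on all 6 arrays. CLH1, a chlorophyllase whose part in senescence is disputed, changed by -1.47 ± 0.21, with an adjusted p of 0.055 by limma on the shared slide alone. Chlorophyll synthesis went the other way in all 24 of 24 members tested, with a median of -1.54. PCB2, the divinyl reductase, read 9.33, 8.98 and 9.04 at DAE28 and 13.45, 12.76 and 12.68 at DAE14, a change of -3.84 ± 0.42. CHLI1, a subunit of magnesium chelatase, changed by -2.19 ± 0.18 and HEME1, a uroporphyrinogen decarboxylase, by -2.16 ± 0.12.

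Genes of the photosynthetic apparatus fell widely. Of 21 antenna genes 17 fell and 0 rose, with a median of -0.81, beside 28.0% falls among all loci. On the 75th percentile scale all 21 fell, with a median of -0.98. LHCA6 changed by -4.31 ± 0.61, LHCB2.3 by -4.28 ± 0.52 and LHCB4.3 by -3.34 ± 0.33. LHCB2.3 read 10.40, 10.61 and 11.61 at DAE28 and 15.18, 15.15 and 15.11 at DAE14, with no overlap. LHCB2.2 changed by -1.71 ± 0.21 in the table, by -0.54 on the 75th percentile scale and by 0.26 after normexp and quantile scaling. Probes for antenna and Rubisco small subunit genes can catch transcripts of near-identical copies, so values of single family members are uncertain. Of 28 photosystem and electron transport genes 20 fell and 0 rose (median -0.73), and all 28 fell on the 75th percentile scale (median -1.06). ATPD, the delta subunit of the plastid ATP synthase, changed by -2.34 ± 0.26, and PSAH2, a photosystem I subunit, by -2.09 ± 0.13. PSBQA, a subunit of the oxygen-evolving complex, changed by -1.78 ± 0.15. PSAH2 read 12.77, 12.85 and 13.02 at DAE28 and 15.11, 14.94 and 14.88 at DAE14.

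All 19 Calvin cycle genes fell, with a median of -1.57. CA1, a carbonic anhydrase of the chloroplast, read 10.27, 9.85 and 10.57 at DAE28 and 15.08, 14.60 and 14.83 at DAE14, a change of -4.60 ± 0.48. GAPA-2, a glyceraldehyde phosphate dehydrogenase, changed by -2.55 ± 0.29. The Rubisco small subunit gene RBCS2B changed by -2.19 ± 0.39, against -1.27 on the 75th percentile scale and -0.55 after normexp and quantile scaling. RBCS1A, another Rubisco small subunit, read 16.70, 16.68 and 16.79 at DAE28 and 17.48, 17.39 and 17.48 at DAE14. Its stages did not overlap, and its change of -0.72 ± 0.17 passed (limma adjusted p = 0.0035). After normexp and quantile scaling it was -0.13 and did not pass (limma adjusted p = 0.28). Photorespiration genes had 10 falls and 0 rises among 13, with a median of -1.18, including the serine hydroxymethyltransferase SHM1 (-1.54 ± 0.21) and the plastid dicarboxylate transporters DiT1 (-1.83 ± 0.19) and DIT2.1 (-1.53 ± 0.09). All 17 plastid ribosomal protein genes fell, with a median of -1.55. RPL15 read 11.12, 10.95 and 11.25 at DAE28 and 14.06, 13.50 and 13.46 at DAE14, a change of -2.57 ± 0.26. Genes of the cytosolic ribosome did not fall with them: 3 of 15 rose and 0 fell, with a median of 0.10. On the 75th percentile scale 0 rose and 3 fell, with a median of -0.10, so the cytosolic ribosome has no settled direction. PGY2, one of the 3, changed by 0.45 ± 0.11 in the table and by -0.14 on that scale. RPS5A changed by 0.63 ± 0.16 in the table, and by 0.33 on that scale and 0.41 with the scan day as a block, without passing in either.

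**Figure D2:**
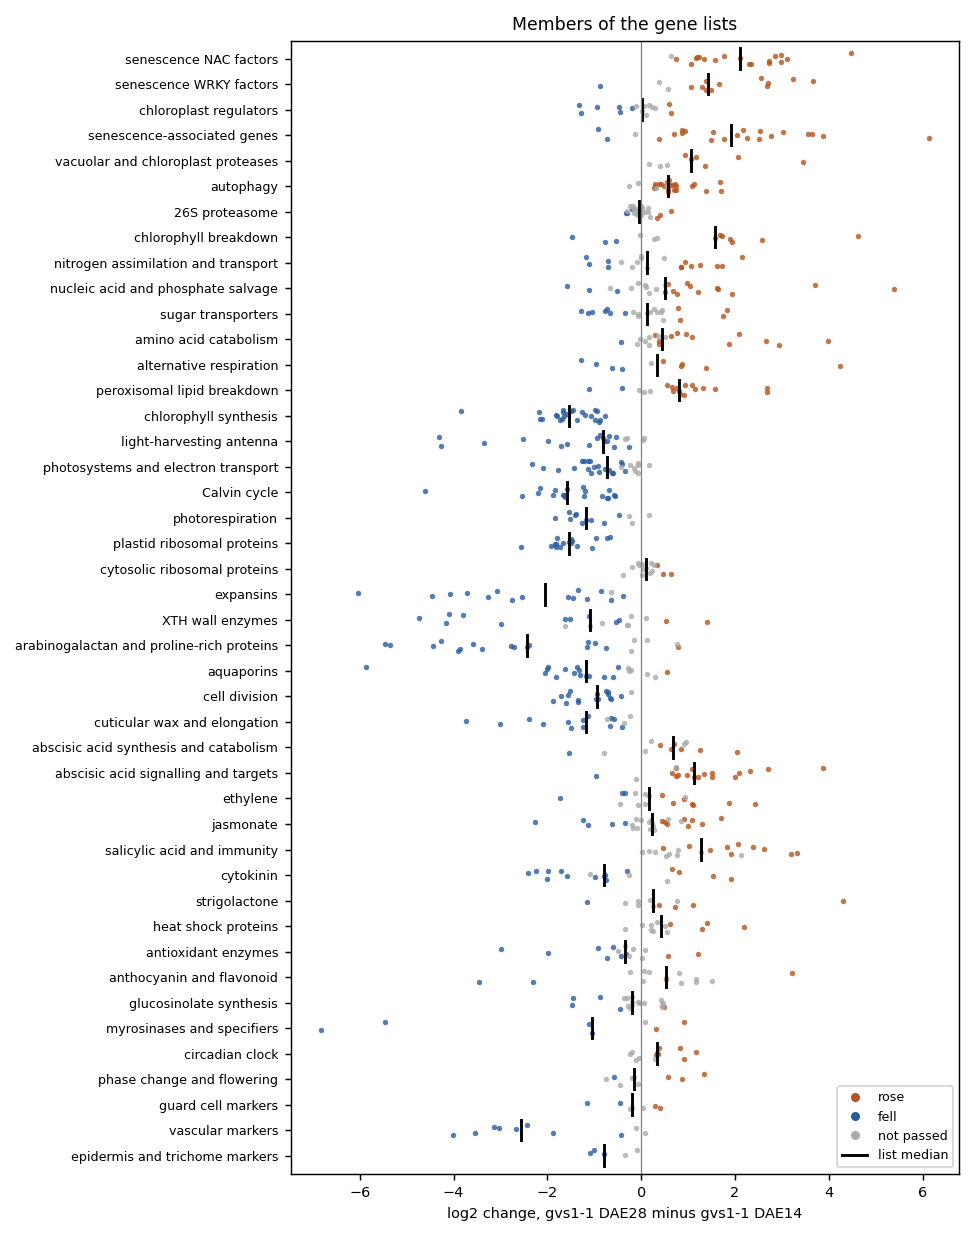
Log2 change with age in gvs1-1, DAE28 minus DAE14 (x axis), of each tested member of 44 gene lists (y axis). Each point is a locus, coloured by whether it rose, fell or did not pass, and the bar is the list median, from 2.11 for senescence NAC factors to -2.56 for vascular markers.

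Genes of nutrient salvage are read beside the 33.4% rises and 28.0% falls of all loci. Nucleic acid and phosphate salvage had 12 rises and 3 falls among 23, with a median of 0.51. PAP17, a purple acid phosphatase, read 14.79, 14.74 and 14.09 at DAE28 and 10.85, 10.52 and 11.15 at DAE14, a rise of 3.70 ± 0.21, and the phosphate transporter PHT1;5 rose by 1.93 ± 0.16. RNS3, a secreted ribonuclease, changed by -1.57 ± 0.31. In nitrogen assimilation and transport 8 of 19 rose and 4 fell, and the median of 0.12 was -0.05 without DAE28 replicate 1, -0.02 without DAE14 replicate 2 and 0.33 without DAE28 replicate 3. The cytosolic glutamine synthetase GLN1.3 rose by 2.16 ± 0.15 and the amino acid transporter LHT1 by 1.61 ± 0.42, and LHT1 did not pass with the slide as a block (1.28, limma adjusted p = 0.11). The nitrate transporter NRT2.5 rose by 1.72 ± 0.44, against 3.13 on the 75th percentile scale, but did not pass on the shared slide alone (limma adjusted p = 0.14). The asparagine synthetase ASN2 changed by -1.18 ± 0.43, and its call was lost in 5 of the 6 settings that left out an array and with the slide as a block (-0.90). Among 21 sugar transporters 4 rose and 7 fell, with a median of 0.12 that was 0.03 without DAE14 replicate 1. SWEET2, a sugar uniporter of the tonoplast, read 8.33, 8.67 and 8.54 at DAE28 and 9.88, 9.75 and 9.76 at DAE14, a change of -1.28 ± 0.31 that did not pass with the scan day as a block (-0.87), while ESL1 rose by 1.84 ± 0.27. The sugar transporters' shares lay below that of all loci for rises and near it for falls.

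Catabolic and respiratory genes rose in part. Amino acid catabolism had 12 rises and 1 fall among 20, with a median of 0.45, including the mitochondrial basic amino acid carrier BAC2 (3.98 ± 0.27) and the branched-chain aminotransferase BCAT-2 (2.93 ± 0.32). The bifunctional lysine catabolism gene AT4G33150 rose by 2.65 ± 0.24. BAC2 read 11.43, 11.34 and 10.29 at DAE28 and 6.86, 6.96 and 7.30 at DAE14. The electron transfer flavoprotein subunit ETFBETA, which accepts electrons from that breakdown, changed by -0.43 ± 0.08. Alternative respiration had 5 rises and 4 falls among 10. Apart from AOX1D, with its rise of 4.23, the NADH dehydrogenase NDB2 rose by 0.87 ± 0.15 and NDA1 changed by -1.28 ± 0.16. AOX1D read 11.06, 10.91 and 10.73 at DAE28 and 5.80, 7.02 and 7.19 at DAE14. The peroxisomal lipid breakdown list, which also holds the plastid enzyme genes PES1 and PES2, had 14 rises and 2 falls among 19. Its median was 0.80. PES1 and PES2, which esterify phytol and fatty acids freed from thylakoids in the plastid, rose by 2.69 ± 0.35 and 2.68 ± 0.23. The peroxisomal citrate synthase CSY3 rose by 1.58 ± 0.20, and the thiolase KAT5 changed by -1.12 ± 0.23.

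Genes of growth and of the cell wall fell in most cases. Of 16 expansins 15 fell and 0 rose, with a median of -2.05 in the table and -4.04 on the 75th percentile scale. EXPA1 read 9.93, 10.89 and 12.05 at DAE28 and 15.04, 15.07 and 15.00 at DAE14. The DAE14 arrays were tight while the DAE28 arrays spread over more than 2 log2 units, and the change was -4.08 ± 0.54. EXPA11 changed by -4.47 ± 0.41. Among 19 XTH genes, whose enzymes cut and rejoin xyloglucan in the wall, 10 fell and 2 rose (median -1.09, and -1.81 on the 75th percentile scale). XTH31 changed by -4.74 ± 0.70, XTH7 by -4.15 ± 0.60 and XTH4 by -4.10 ± 0.32. XTH24 rose by 1.41 ± 0.39 but did not pass on the shared slide alone (0.85, limma adjusted p = 0.23). Arabinogalactan and proline-rich proteins had 16 falls and 1 rise among 21 and a median of -2.44. FLA2, a fasciclin-like arabinogalactan protein, read 6.04, 6.62 and 6.43 at DAE28 and 10.96, 10.54 and 10.88 at DAE14, a change of -4.43 ± 0.15, against -7.11 on the 75th percentile scale. AGP24 was the rise, with 0.79 ± 0.25, and its call was lost without DAE14 replicate 1 and with the slide as a block (0.59).

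Water channels fell in 15 of 21 cases and rose in 1, with a median of -1.18, including the plasma membrane aquaporin PIP3 (-2.05 ± 0.17). PIP2;4 changed by -2.01 ± 0.15, against -5.66 on the 75th percentile scale, with 1 of 3 DAE28 arrays above background. Of 17 cell division genes 16 fell and 0 rose. They lay near the floor of the arrays at DAE28, and their median was -0.94 in the table and -2.90 on the 75th percentile scale. PCNA1, the sliding clamp of DNA replication, read 5.99, 5.95 and 6.18 at DAE28 and 8.36, 7.97 and 7.45 at DAE14, a change of -1.89 ± 0.18, against -3.50 on the 75th percentile scale. MCM2, of the replicative helicase, changed by -1.72 ± 0.16, and the mitotic cyclin CYCB1;4 by -1.61 ± 0.11, against -3.38 on the 75th percentile scale, with 2 of 3 DAE28 arrays above background. Cuticular wax and elongation genes had 13 falls and 0 rises among 16 (median -1.18), led by the cutin synthesis gene GPAT8 with -3.73 ± 0.18 and the elongase KCS1 with -3.01 ± 0.48.

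Markers of cell types within the leaf moved beside these lists. Vascular markers fell in 8 of 10 cases and rose in 0, with a median of -2.56. XCP2, a protease of maturing xylem, read 6.43, 7.60 and 7.16 at DAE28 and 11.22, 11.04 and 10.96 at DAE14, a change of -4.01 ± 0.25. XCP1 changed by -3.55 ± 0.21, against -5.75 on the 75th percentile scale, with 2 of 3 DAE28 arrays above background, and the sieve element protein gene listed as SEOa by -3.13 ± 0.20. The phloem regulator APL and the phloem lectin PP2-A1 did not pass, at 0.09 and -0.11. The log2 of the summed level of the 10 vascular markers was 14.45 to 14.58 at DAE28 and 15.12 to 15.28 at DAE14. Epidermis and trichome markers fell in 3 of 5 cases, with summed levels of 11.76 to 11.91 at DAE28 and 12.71 to 12.93 at DAE14. Guard cell markers had 2 rises and 2 falls among 7, near the 33.4% and 28.0% of all loci. Their summed levels were 11.24 to 11.46 at DAE28 and 11.49 to 11.61 at DAE14. The part of these shifts in the wall, wax and myrosinase changes was not tested. Markers of tissues outside the leaf were few: 2 of 6 flower and meristem markers and 2 of 4 root markers were tested, and 0 of 4 seed markers. All 28 photosystem and all 21 antenna genes, which mark green leaf tissue, were above background on all 6 gvs1-1 arrays.

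**Figure D3:**
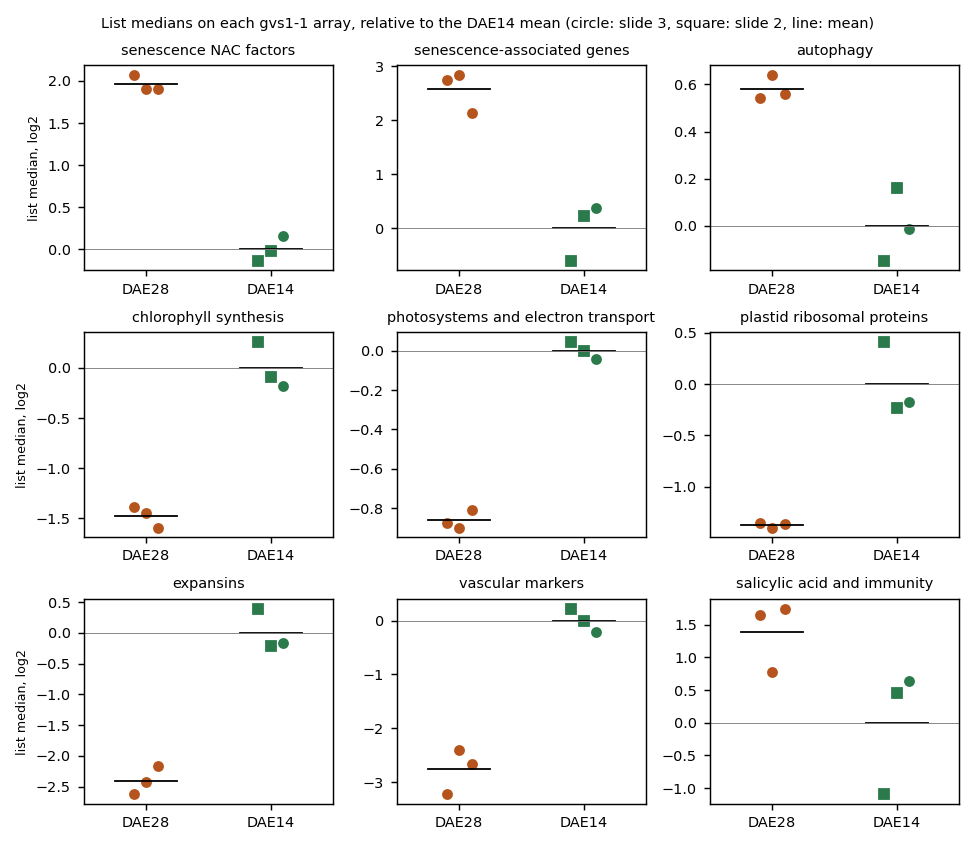
Median log2 level of 9 gene lists on each gvs1-1 array relative to the mean of the DAE14 arrays (y axis), with DAE28 left of DAE14 (x axis), circles for the slide that holds both stages, squares for the other slide and lines for stage means. Expansin medians lie at -2.63 to -2.17 at DAE28 against -0.22 to 0.39 at DAE14, while the salicylic acid list spreads from -1.10 to 0.64 among the DAE14 arrays.

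Hormone pathways differed in how far they moved. Abscisic acid signalling and target genes had 16 rises and 1 fall among 19, with a median of 1.13. RD20, a calcium-binding lipid droplet protein gene, read 13.90, 14.11 and 13.10 at DAE28 and 11.57, 10.97 and 11.59 at DAE14, a rise of 2.33 ± 0.25. LTI78, also RD29A, rose by 2.70 ± 0.22. RD22 changed by -0.97 ± 0.31, and its call was lost without DAE14 replicate 3, DAE28 replicate 1 or DAE28 replicate 3, and with the slide as a block (-1.21, limma adjusted p = 0.063). Abscisic acid synthesis and catabolism had 6 rises and 1 fall among 12 (median 0.67). The rises included the hydroxylases CYP707A2 (2.05 ± 0.21) and CYP707A4 (1.25 ± 0.15), which inactivate the hormone. The synthesis gene ABA2 changed by -1.55 ± 0.13 and ABA3 rose by 0.84 ± 0.09.

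Ethylene genes had 7 rises and 3 falls among 17, beside 33.4% rises and 28.0% falls among all loci. Their median was 0.17, against 0.33 without DAE14 replicate 3 and 0.47 on the 75th percentile scale. The response factor ERF1 read 10.27, 10.47 and 10.52 at DAE28 and 7.98, 8.33 and 7.65 at DAE14, a rise of 2.43 ± 0.38. The synthesis gene ACS2 rose by 1.87 ± 0.29, against 3.01 on the 75th percentile scale, and the transcription factor EIN3, which drives ethylene responses, by 1.10 ± 0.18. Jasmonate genes had 8 rises and 5 falls among 26, no more than the 33.4% and 28.0% of all loci, and 5 rises and 6 falls on the 75th percentile scale. Their median of 0.22 was 0.08 without DAE28 replicate 2. MYC2, the main transcription factor of jasmonate responses, rose by 1.30 ± 0.22 and its repressor JAZ5 by 1.70 ± 0.30, while the vegetative storage protein gene VSP2 changed by -2.26 ± 0.44.

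Of 19 salicylic acid and immunity genes 10 rose and 0 fell, with a median of 1.27. The list rested in part on DAE14 replicate 1: without it the median was 0.65, and on the shared slide, which lacks it, the median was 0.63 with 4 rises. PR1, a pathogenesis-related protein and salicylic acid marker, read 13.07, 11.23 and 12.83 at DAE28 and 7.31, 11.67 and 11.78 at DAE14. DAE14 replicates 2 and 3 lay above DAE28 replicate 2, and the change of 2.12 ± 1.10 did not pass (limma adjusted p = 0.11). FMO1, which makes the immune signal N-hydroxypipecolic acid, rose by 3.32 ± 0.68 but did not pass on the shared slide alone (2.44, limma adjusted p = 0.074). DLO1, a salicylic acid hydroxylase listed as AT4G10500, rose by 3.20 ± 0.72 but did not pass with the slide as a block (2.02). NIMIN1, a regulator that binds the receptor NPR1, rose by 2.61 ± 0.61 and had a limma adjusted p of 0.054 on the shared slide.

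Cytokinin genes had 11 falls and 4 rises among 18, with a median of -0.79. The type-A response regulators ARR6 and ARR7, which the hormone induces, changed by -2.41 ± 0.33 and -2.25 ± 0.40. ARR6 read 6.66, 6.82 and 7.07 at DAE28 and 9.87, 8.72 and 9.19 at DAE14. The cytokinin oxidase CKX6 changed by -2.02 ± 0.16, and the cytokinin response factor CRF6 rose by 1.92 ± 0.17. Strigolactone genes had 4 rises, a share near the 33.4% of all loci, and 1 fall among 11 (median 0.25). CCD8, which is described above, was among the rises. CCD7, which acts before CCD8, read 7.02, 6.49 and 6.07 at DAE28 and 5.42, 5.42 and 5.45 at DAE14. It was at least 2.10-fold higher, and on the shared slide alone it did not pass (limma adjusted p = 0.085). D27, which opens that pathway, changed by -1.15 ± 0.16.

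Lists of stress and secondary metabolism are likewise read beside 33.4% rises and 28.0% falls among all loci. Of 12 heat shock proteins and their factors 4 rose, a share like that of all loci, and 0 fell (median 0.42, and 1.14 on the 75th percentile scale), among them HSP70, which was 4.59-fold higher at DAE28, and the factor HSFB2A with 1.40 ± 0.11. Antioxidant enzymes had 7 falls and 2 rises among 15 (median -0.36). The plastid copper and zinc superoxide dismutase CSD2 read 9.40, 8.54 and 8.68 at DAE28 and 11.99, 11.95 and 11.62 at DAE14, a change of -2.98 ± 0.32. The thylakoid ascorbate peroxidase TAPX changed by -1.98 ± 0.25. The catalase CAT3 changed by 1.21 ± 0.16 in the table and by -0.15 on the 75th percentile scale, so its direction is not settled. Among 14 anthocyanin and flavonoid genes 2 rose and 2 fell, with a median of 0.53 that was 0.21 without DAE28 replicate 2. On the 75th percentile scale 5 rose, with a median of 1.18. The anthocyanin regulator PAP1 rose by 3.22 ± 0.45. The chalcone synthase gene TT4 read 6.24, 9.41 and 6.81 at DAE28 and 11.69, 10.31 and 10.84 at DAE14. Its change of -3.46 ± 1.19 was lost without DAE14 replicate 1 or 3 or DAE28 replicate 1 or 3, and with the scan day as a block (-1.85). Glucosinolate synthesis had 4 falls and 1 rise among 19 (10 falls on the 75th percentile scale), with a median of -0.20 that was -0.51 on that scale and -0.12 without DAE14 replicate 3, with the regulators MYB29 at -1.47 ± 0.15 and MYB34 at -1.46 ± 0.28. Myrosinases and specifier proteins had 4 falls and 2 rises among 7. Beside TGG1 and TGG2, the epithiospecifier modifier ESM1 changed by -1.12 ± 0.25, which did not pass on the shared slide alone (limma adjusted p = 0.16). NSP5 rose by 0.92 ± 0.29, and without DAE14 replicate 2, DAE28 replicate 1 or DAE28 replicate 2 it did not pass.

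Clock genes, all sampled at 5 h after lights on, had 7 rises and 0 falls among 12, with a median of 0.33. On the 75th percentile scale 3 rose, and 3 to 5 rose with any 1 gvs1-1 array left out. LHY, a morning factor of the clock, read 10.59, 10.67 and 10.78 at DAE28 and 9.59, 8.87 and 10.08 at DAE14, a rise of 1.17 ± 0.30 that did not pass with the slide as a block (0.60). TOC1, the evening factor, rose by 0.83 ± 0.14. CCA1, the close relative of LHY, read 8.67, 9.07 and 9.03 at DAE28 and 8.73, 8.33 and 8.85 at DAE14. Its stages overlapped and its change of 0.29 ± 0.18 did not pass (limma adjusted p = 0.19). Phase change and flowering genes had 3 rises, a share like the 33.4% of all loci, and 1 fall among 9. Their median of -0.16 was 0.10 without DAE28 replicate 1. AGL8, also FRUITFULL, rose by 1.33 ± 0.11, AGL20, also SOC1, by 0.87 ± 0.13 and the floral repressor SVP by 0.57 ± 0.09. SVP changed by 0.16 and did not pass on the 75th percentile scale.

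The same age contrast in Col shows where gvs1-1 leaves aged otherwise. In Col 13605 loci passed (72.3%), with 7370 rises (39.2%) and 6235 falls (33.2%). The difference between the age changes, gvs1-1 minus Col, passed for 3771 loci (20.1%), of which 1720 (9.15%) were above 0 and 2051 (10.9%) below. With the slide as a block 1336 passed and with the scan day as a block 1121. In Col only DAE28 replicate 1 shared a slide with the DAE14 arrays. The difference with the slide as a block therefore rests on that array and on gvs1-1 DAE14 replicate 3. The count of differences was 2424 without gvs1-1 DAE14 replicate 2, 2307 without Col DAE14 replicate 1 and 2470 without Col DAE14 replicate 3. Of 1229 loci that rose in both genotypes and whose difference passed, 1189 rose less in gvs1-1. Of 1021 that fell in both and whose difference passed, 999 fell less in gvs1-1. On the 75th percentile scale 53.2% of the differences that passed were above 0, against 45.6% in the table.

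Photosynthesis and senescence lists held many such differences. The difference was above 0 in 20 of 28 photosystem genes, 15 of 21 antenna genes, 13 of 19 Calvin cycle genes, 12 of 17 plastid ribosomal protein genes and 10 of 24 chlorophyll synthesis genes, and below 0 in 0 of each, beside 9.15% and 10.9% of all loci. The photosystem median was -0.73 in gvs1-1 and -1.65 in Col, and that of plastid ribosomal proteins -1.55 in gvs1-1 and -2.57 in Col. Below 0 were 10 of 19 senescence NAC factors and 10 of 22 senescence-associated genes. So were 13 of 25 autophagy genes and 12 of 23 nucleic acid and phosphate salvage genes, and 0 of each of these lists were above 0. The other salvage lists went both ways. Nitrogen assimilation and transport had 2 above and 6 below among 19, and sugar transporters 3 above and 4 below among 21. With the slide as a block the counts above 0 became 23 photosystem, 16 antenna, 12 Calvin cycle, 8 plastid ribosomal protein and 11 chlorophyll synthesis genes. With that block 3 NAC factors, 8 senescence-associated genes, 4 autophagy genes and 3 nucleic acid and phosphate salvage genes were below 0. Among all loci 3.96% were above 0 and 3.14% below. With the scan day as a block, 23 photosystem, 14 antenna, 9 Calvin cycle, 9 plastid ribosomal protein and 12 chlorophyll synthesis genes were above 0. Below 0 with it were 6 NAC factors, 7 senescence-associated genes, 4 autophagy genes and 2 nucleic acid and phosphate salvage genes. Among all loci 3.56% were above 0 and 2.4% below.

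Most growth lists held few. The difference passed in 1 of 16 expansins, 1 of 17 cell division genes, 2 of 19 XTH genes, 3 of 21 aquaporins, 2 of 16 wax and elongation genes and 0 of 10 vascular markers, beside 20.1% of all loci. Among arabinogalactan and proline-rich proteins it passed in 5 of 21, with 2 above 0 and 3 below in the table and 5 above and 2 below on the 75th percentile scale. The expansin median was -2.05 in gvs1-1 and -1.98 in Col, and that of the vascular markers -2.56 in gvs1-1 and -2.34 in Col. The epidermis and trichome markers held more, with 3 differences above 0 and 0 below among 5. With the slide or the scan day as a block 2 passed above 0. Their median change was -0.78 in gvs1-1 and -1.78 in Col. Among 7 guard cell markers 1 difference passed, below 0. The myrosinase and specifier list also held more, with 3 differences above 0 and 1 below among 7. For TGG1 the difference was 0.09 (95% interval -0.43 to 0.61) in the table and 0.13 on the 75th percentile scale. For TGG2 it passed, at 1.28 (0.50 to 2.07) in the table and 2.03 on that scale. For XCP2 it was 0.04 (-0.74 to 0.81) in the table and -0.02 on that scale. FLA2 lay near the floor of the arrays at DAE28 in both genotypes, and its difference was 0.34 in the table and 1.21 on that scale, neither of which passed. The salicylic acid list had 1 difference in 19, with medians of 1.27 in gvs1-1 and 1.29 in Col, though for PR1 the interval ran from -3.27 to 3.55.

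**Figure D4:**
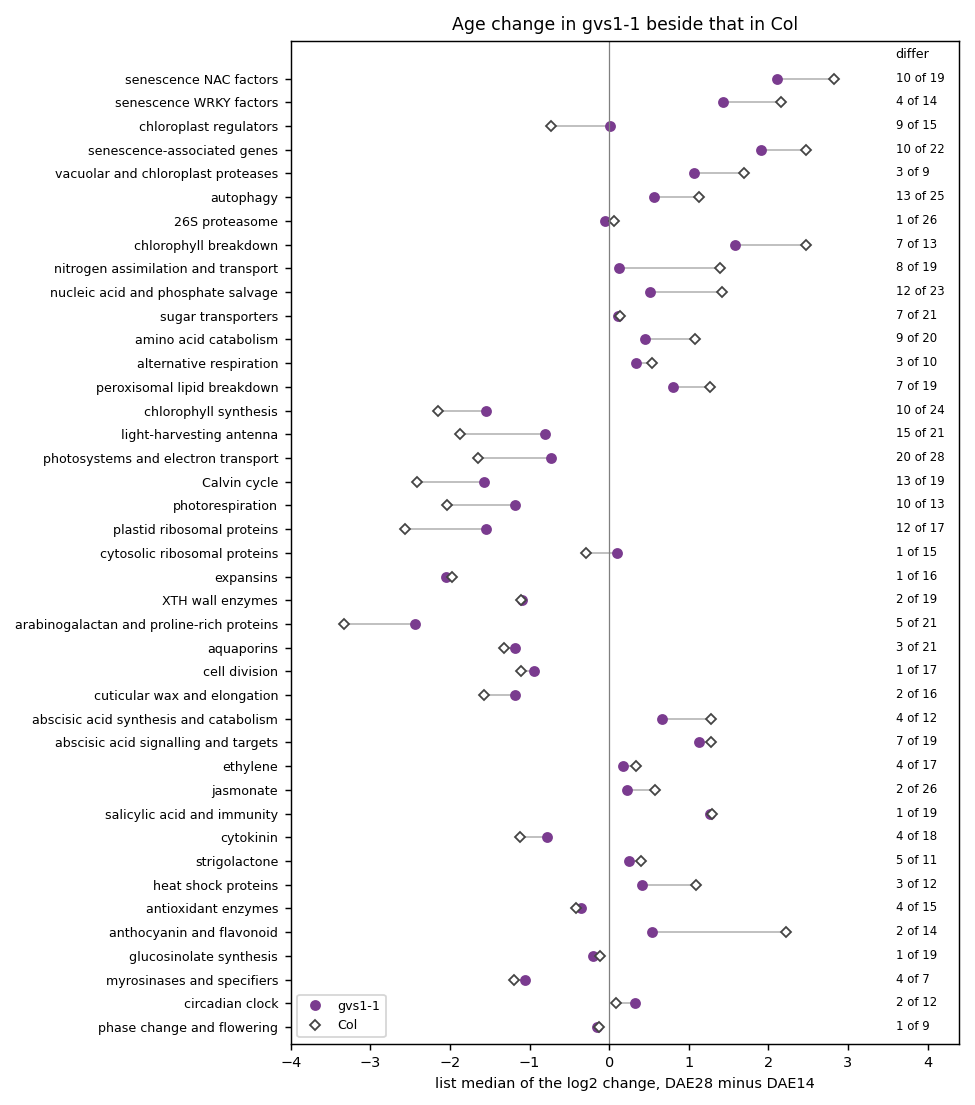
List median of the log2 age change, DAE28 minus DAE14 (x axis), in gvs1-1 (filled circles) and in Col (open diamonds) for 41 gene lists (y axis), with the number of tested members whose difference passed at the right. The circles lie nearer 0 than the diamonds for photosystem genes (-0.73 and -1.65) and autophagy (0.57 and 1.12), and beside them for expansins (-2.05 and -1.98).

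The largest single differences are named among loci above background on all 12 arrays. SRG1, a senescence-related oxygenase gene, rose by 3.65 ± 0.38 in gvs1-1 and by 7.26 in Col, and PES1 by 2.69 ± 0.35 in gvs1-1 and 6.26 in Col. The trypsin inhibitor TI1 rose by 2.89 ± 0.62 in gvs1-1 and 6.40 in Col, and the cytochrome P450 gene CYP91A2 by 2.47 ± 0.35 in gvs1-1 and 5.80 in Col. MC9, a metacaspase known from the clearing of dying xylem cells, read 7.82, 7.13 and 7.20 at DAE28 and 7.94, 8.14 and 7.86 at DAE14 in gvs1-1. Its change there was -0.60 ± 0.33 and did not pass, whereas it rose by 2.78 in Col. That error includes the spread of the Col arrays, and with the gvs1-1 arrays alone the change passed (limma adjusted p = 0.030). On the other side the extensin-like protein gene ELP changed by -3.53 ± 0.27 in gvs1-1 and -6.46 in Col, XTH6 by -3.80 ± 0.37 in gvs1-1 and -6.30 in Col, and the carbonic anhydrase CA2 by -2.49 ± 0.39 in gvs1-1 and -4.63 in Col. The ovate family protein gene OFP15 changed by -2.79 ± 0.40 in gvs1-1 and -4.83 in Col.

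Opposite calls were rare, with 89 loci called in opposite directions by genotype, 52 up in gvs1-1 and down in Col and 37 the other way. SWEET2 was one of the 37, with -1.28 ± 0.31 in gvs1-1 and 1.06 in Col. The cytosolic superoxide dismutase CSD1 changed by -0.92 ± 0.36 in gvs1-1 and 0.89 in Col. CSD1 read 13.21, 11.73 and 11.74 at DAE28 and 13.12, 13.46 and 12.86 at DAE14 in gvs1-1, so its stages overlapped. That call was lost without DAE14 replicate 1, 2 or 3 and without DAE28 replicate 2 or 3, and the change was -1.41 without DAE28 replicate 1.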

How the data were processed

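The arrays were read by the authors with Agilent Feature Extraction, version 11.5 per the submitters' processing notes and 11.5.1.1 per the file headers. The deposited scanner files hold spot intensity on a linear scale and background flags. The main source was a deposited table with 1 value per locus on a log2 scale, made by the authors, for 21266 loci. Its values tracked each array's log2 median signal, with array medians of 8.86 to 8.91, and how it was scaled across arrays is not stated in those sources. The 75th percentile of the processed signal was 1172 to 1309 on gvs1-1 DAE28 arrays and 793 to 895 on gvs1-1 DAE14 arrays, and 67.6% to 70.4% and 66.1% to 69.7% of probes were well above background. By accession, 34348 of 43603 probes found a locus in the table of the TAIR10.1 assembly. The files name TAIR10, so no coordinates are printed. A locus was above background where any of its probes was, and 166 probes with an outlier mark and 1522 table loci without a matched probe were left out. Saturated spots numbered 0.

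Two-sided tests were run with limma 3.58.1 under R 4.3.3, using lmFit and then eBayes, in 1 fit of 4 group means over all 12 arrays. The p-values and standard errors rest on the spread between biological samples within a group, pooled over all 4 groups. The spread of the Col arrays therefore enters the errors given for gvs1-1. Simulated data at these sizes were used to test the fit. For the scanner scales, log2 processed signal was set against each array's 75th percentile, or median signal was corrected by normexp with an offset of 50 and quantile normalized; the probe with the highest mean stood for a locus. The other alternatives were array medians subtracted, no filter, a stricter filter, gvs1-1 arrays alone, blocks for slide, scan day and replicate number, 1 slide or scan day alone, and each array left out.

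Members and lists were chosen with earlier results of these data known. Named loci were the 10 largest rises and falls, the 4 largest bounds each way, up to 3 members per list in its main direction and 1 in the other, the 5 largest differences from Col each way, and a panel of 9 markers. Other members of a list named in the text (JUB1, VNI2, NAC090, ATG8E, ATG7, APL and PP2-A1) were chosen after their values were seen. A locus that this rule names is not reported here. Sequences were not used here.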

Additional observations from a re-analysis of the deposited data

Results flagged for a closer look

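Each result here had a tested difference between gvs1-1 and Col in the same age contrast (limma adjusted p under 0.05). It is given as gvs1-1 minus Col on the log2 scale, and its cause was not tested. In total 3771 loci met this test.

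Among the largest rises in gvs1-1 the difference was -1.88 for PYD4, -1.73 for ANAC087, -2.21 for AOX1D and -2.03 for GSTU11, so each rose less than in Col. On the 75th percentile scale it did not pass for AOX1D (-2.40, limma adjusted p = 0.12) or GSTU11 (-2.82, limma adjusted p = 0.10). Among the largest falls the difference was 1.28 for TGG2, against 2.03 on the 75th percentile scale. Among loci with only a bound at one gvs1-1 stage it was -3.32 for CCD8, -2.67 for CEP1, -3.75 for PAP20 and 0.96 for PRP2, where the deposited log2 values can compress the change.

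The panel markers with a difference were SAG12 with -8.99, NAP with -1.90, NYE1 with -1.86, RBCS1A with 0.84 and LHCB2.2 with 2.05. SAG12 was above background on 0 of 3 DAE14 arrays in both genotypes, so both of its age changes have only a bound. At DAE28 it read 10.01, 8.60 and 5.95 in gvs1-1 and 17.32, 17.22 and 17.23 in Col. For LHCB2.2 the difference was 1.05 on the 75th percentile scale. The remaining differences were chosen for their size. Above 0 they were 2.93 for ELP, 2.50 for XTH6, 2.15 for CA2 and 2.03 for OFP15, which had 3.36 on the 75th percentile scale. Below 0 they were -3.61 for SRG1, -3.57 for PES1, -3.51 for TI1, -3.38 for MC9 and -3.33 for CYP91A2.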

How the results depend on the processing

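The count of loci changed with age in gvs1-1 was 11553, 7622 on the shared slide alone, 11302 with the replicate block, and 10228 to 10947 with 1 array left out. The count of differences from Col was 3771. It was 1336 with the slide as a block, 1121 with the scan day as a block, 1869 on the arrays of 1 scan day, 3387 with the replicate block and 2307 to 4999 with 1 array left out. Deviations of same-numbered gvs1-1 samples correlated at 0.09, -0.13 and 0.06 across loci, and those of differently numbered ones at -0.22 to 0.22. These values show no pairing by number. With 3 arrays per stage and the DAE14 arrays split between slides, they cannot exclude it.

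Of 181 named age results 140 kept their direction and their side of the threshold in every setting, and of 44 list medians 40 kept their sign. The slide as a block, the shared slide alone and 1 scan day alone share the same estimate of the gvs1-1 age change. They are therefore not separate checks of its size. The chloroplast regulators' median of 0.01 was -0.093 on the 75th percentile scale, -0.094 with the scan day as a block, -0.017 with array medians subtracted, -0.048 without a filter, and -0.085 with the slide as a block, on the shared slide and on 1 scan day. It was -0.058 to 0.048 with 1 array left out. Other medians that turned were nitrogen assimilation (-0.045 to 0.325 with 1 array left out), cytosolic ribosomal proteins (-0.10 on the 75th percentile scale), and phase change (0.040 with the scan day as a block, and -0.19 to 0.10 with 1 array left out). Single loci that turned were LHCB2.2 (0.26 after normexp and quantile scaling), PGY2 (-0.14) and CAT3 (-0.15), both on the 75th percentile scale. The cause was not tested. Signal near background can limit changes of dim loci. The age comparison within a slide rests on 1 DAE14 array in gvs1-1 and on 1 DAE28 array in Col.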
